A study of Mus musculus with 2 samples.

Results

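Oaz3, Car2, Tppp2 and Spata3 are genes read here in a mouse testis single-cell series. Their CPM (a gene's count as a share of all counts, scaled to a common total) was highest in Sd10, the last spermatid cluster. They were picked by that rule, over 13 clusters of cells and in both libraries, so that their levels over the clusters are a description and were not tested, the more so as the clusters were made from the counts of these genes among others. They are 4 of the 5476 gene symbols that could be tied to 1 row of the count matrix. Over all cells Oaz3 had 520832 UMIs (unique molecular identifiers, each for 1 captured mRNA molecule), Spata3 93484, Tppp2 52098 and Car2 37748.

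The series set wild-type (WT) beside Tex13a-knocked-out (KO) testes of adult male C57BL/6 mice, given as C57BL/6N and 10 to 12 weeks old in the study's methods. In the KO mice all reading frames of the X-linked gene Tex13a had been deleted with CRISPR/Cas9, and no restriction of the deletion to a cell type is named. Each genotype was 1 library, made from 3 testes of 3 mice pooled after digestion with collagenase I, and the single cells of a pool cannot be assigned to a mouse. There is therefore no replicate and no test between genotypes, and genotype and library cannot be told apart. Intervals below are exact 95% intervals that cover counting error only.

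There were 5170 WT and 7238 KO cells with 45568532 and 67734689 UMIs, a median of 6508 and 6714.5 per cell, and the libraries shared 0 cell barcodes. Sd10 held 184 WT and 278 KO cells with 1252689 and 1762193 UMIs. The symbol Tex13a could stand for 7 rows of the matrix. All 7 had UMIs in WT, from 22 to 2295, so that none was at 0 in the library labelled WT, and the row with 2295 had 0 UMIs in KO. Each of the other possible rows had UMIs in KO, from 52 to 3151. The matching of symbols to rows alone does not settle which of them is Tex13a. The label of Sd10 as an elongating spermatid cluster was checked against its markers. All 8 elongating spermatid markers had UMIs there, as in every other cluster, so that their detection does not set Sd10 apart. They summed to 164762 CPM in WT and 153881 in KO, against 8631 and 8603 CPM in Sd3. Their sum was highest in Sd8, at 291956 and 287189 CPM. The round spermatid markers summed to 1132 and 1056 CPM in Sd10, above their 762 and 679 CPM in Sd9 and below their 4051 and 3758 CPM in Sd4. The spermatocyte markers summed to 145 and 151 CPM in Sd10. The 8 somatic and blood cell markers that could be read summed to 113 CPM in WT Sd10 and 68.1 CPM in KO Sd10, with 1 of them at 0 in each library.

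In mammalian spermatids transcription stops as the nucleus condenses, and mRNAs made earlier are stored and translated while histones are exchanged first for transition proteins and then for protamines. The last spermatids keep a shrinking set of mRNAs for the tail, the sheath around it and the energy supply of the sperm. Oaz3 encodes antizyme 3, the testis-specific member of a family of proteins that bind ornithine decarboxylase and so restrain the synthesis of polyamines. Car2 encodes carbonic anhydrase 2, an enzyme that interconverts carbon dioxide and bicarbonate. Tppp2 encodes a testis-enriched member of the tubulin polymerization promoting proteins, and Spata3 a spermatogenesis-associated protein whose molecular role is not well described.

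Antizyme mRNAs are read in a way that shows in their sequence. Translation starts in a frame that soon meets a stop codon, and ribosomes reach the rest of the message only by slipping forward by 1 base, which polyamines promote. Oaz3 (ENSMUSG00000028141.11) lies on the minus strand of chr3:94432414-94443915 in GRCm38, the build the reads were aligned to under its name mm10. The annotation (GENCODE vM21) opens the longest coding transcript, Oaz3-204, with a CTG codon in place of ATG, and leaves 1 base out of the reading frame after 258 coding bases, or 86 codons. The coding sequence of Oaz3-204 after the left-out base runs for a further 471 bases. The same join stands in 5 transcripts of the gene, of which Oaz3-206 and Oaz3-207 go on for 183 bases and Oaz3-205 and Oaz3-206 open with ATG. Both places are shown 5′ to 3′ on the minus strand because the frame change is the mark of antizyme genes and the CTG codon is where the first frame of Oaz3-204 opens. The capitals mark the CTG start in chr3:94436526-94436554, and the TCC codon followed by the TGA stop of the first frame in chr3:94436020-94436048. The annotation leaves out the T of that TGA, at position 94436034, and reads on with GAG.
Oaz3 start: CTGccttgtaacaggtcccgcccctctct
Oaz3 frame change: gcctccagtgcTCCTGAgtccctaggagg

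The other genes were read in the same annotation for place and length only, and a left-out base was not looked for in them. Car2 (ENSMUSG00000027562.12) lies on the plus strand of chr3:14886273-14900770 and encodes 260 codons. Tppp2 (ENSMUSG00000008813.13) lies on the plus strand of chr14:51918425-51920700 with 170 codons, and Spata3 (ENSMUSG00000026226.16) on the plus strand of chr1:86016816-86029958 with 333 codons, against 243 codons for Oaz3-204. The 3′ untranslated regions of the longest coding transcripts were 120 bases in Oaz3, 88 in Tppp2, 75 in Spata3 and 680 in Car2, beside a median of 797 bases over 20636 genes. The letters AGGTAA, the DNA form of a motif the study ties to Tex13a, stood once in that region of Car2 and not in those of the other genes, and 19.0% of all genes with such a region held them. In the 250 bases before the RefSeq starts of Spata3 and Tppp2 (GRCm38.p6) 5 motifs were looked for on both strands and not found. They were TGACG, the core of the cyclic AMP response element, which 17.8% of 32851 such windows held, and its palindrome TGACGTCA, with 1.55%, which also counts as TGACG. The TATA box, spelled TATAAA, stood in 12.4% of windows, CCAAT in 33.8% and the letters GTTGCC in 10.4%. Both windows, chr1:86021695-86021944 for Spata3 and chr14:51918511-51918760 for Tppp2, lie inside the genes as GENCODE places them, with 3 and 46 exon bases. The bases before the first GENCODE start of these genes were thus not searched. No window of Oaz3 or Car2 was used.

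Oaz3 overlaps 2 genes on the opposite strand. It shares 2255 bases with the end of Tdrkh, which cover 340 of the 935 bases of Oaz3-204, and 598 bases with Mrpl9, which cover 0 of them. Whether the counting used strand is not given in the sources used here, and Tdrkh and Mrpl9 had 4 and 8 possible rows, so that reads of these genes in the Oaz3 counts cannot be told apart.

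Oaz3 was the gene with the most UMIs among the 4. In WT its CPM went from 545 in Sd1, the lowest cluster, over 1521 in Sd3, 3135 in Sd4 and 5737 in Sd5 to 10405 in Sd8, 16762 in Sd9 and 30623 (30317 to 30931) in Sd10. In KO the same clusters had 523, 1461, 3304, 5535, 9959, 16694 and 31904 (31641 to 32169) CPM. The level was higher at every step from Sd1 to Sd10 in both libraries, and Sd10 was 56.2-fold (WT) and 61.0-fold (KO) above Sd1.

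Car2 showed its main step later. In WT it had 26.3 CPM in Sd2, the lowest cluster, 27.4 in Sd3, 74.0 in Sd4, 415 in Sd5, 724 in Sd8, 1206 in Sd9 and 2049 (1971 to 2130) in Sd10. In KO it had 34.7 CPM in Sd2, 35.9 in Sd3, 92.1 in Sd4, 512 in Sd5, 870 in Sd8, 1379 in Sd9 and 2434 (2362 to 2508) in Sd10. Between Sd4 and Sd5 the WT level was 5.61-fold higher (4.95 to 6.36), the largest step of Car2 in that library. The 4 lowest WT clusters, Sd1, Sc2, Sd3 and Sd2, differed from the next in that order by no more than counting error. The ends of that order were apart, with Sd2 at 0.73-fold of Sd1 (0.55 to 0.96).

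Tppp2 stayed at 50.4 to 61.5 CPM in Sc2 and Sd1 to Sd3 of WT, and then had 249 CPM in Sd4, 619 in Sd5, 1089 in Sd8, 1656 in Sd9 and 3144 in Sd10. In KO it had 268 CPM in Sd4, 569 in Sd5, 1056 in Sd8, 1638 in Sd9 and 3184 in Sd10. Spata3 followed with 96.3 CPM in Sd3, 557 in Sd4, 1191 in Sd5, 2135 in Sd8, 3398 in Sd9 and 4475 (4359 to 4594) in Sd10 of WT. The KO values of Spata3 were 103, 563, 1142, 2026, 3285 and 4217 CPM. Both genes were thus far higher in Sd5 than in Sd3, 10.8-fold for Tppp2 and 12.4-fold for Spata3 in WT, and 9.60-fold and 11.1-fold in KO. In the order of clusters, Sd10, Sd9 and Sd8 were apart from their neighbours by counting interval for each gene in both libraries, and the neighbours that were not apart were Sg with Sc1 and low clusters from Sc2 and Sd1 to Sd3.

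**Figure D1:**
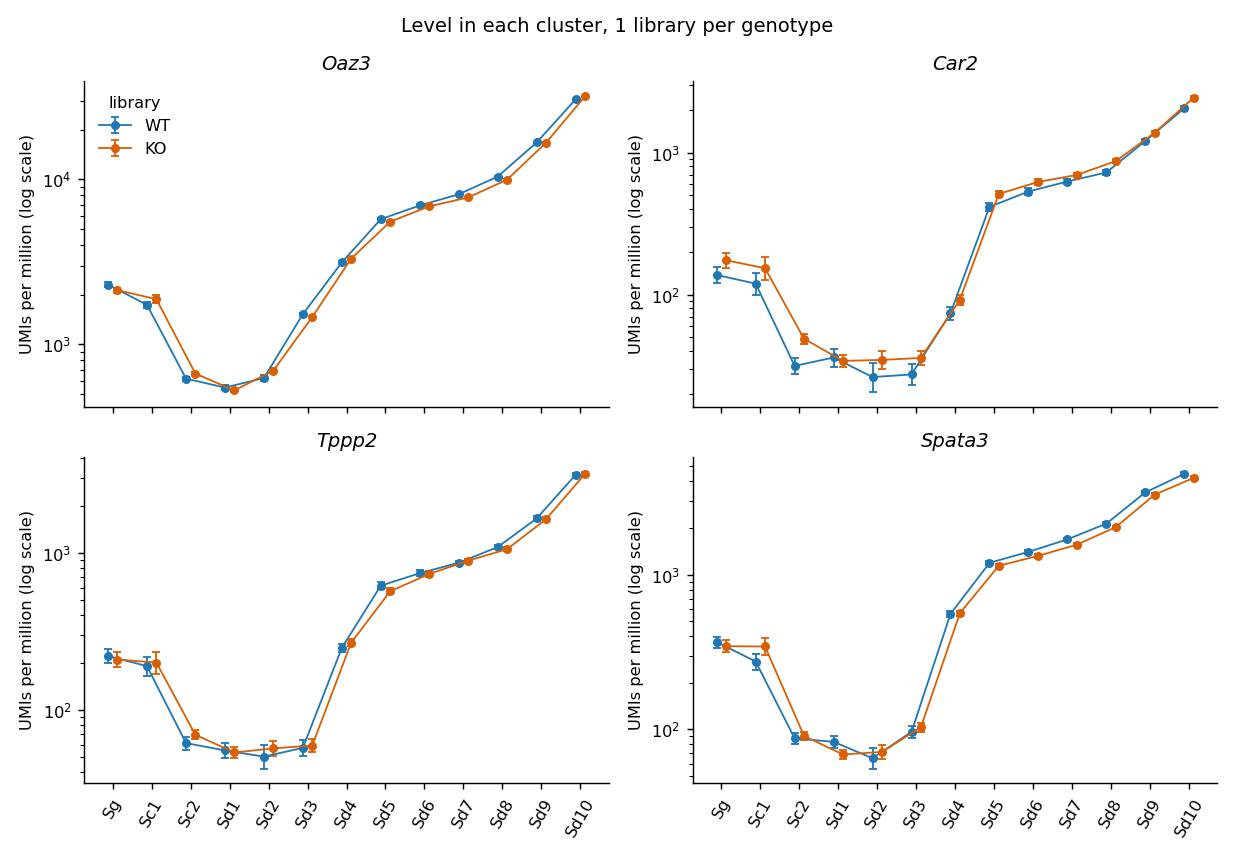
CPM (log scale) of Oaz3, Car2, Tppp2 and Spata3 over the 13 clusters, in the order Sg, Sc1, Sc2 and Sd1 to Sd10, for the WT and the KO library, with 1 point per library and cluster. Each gene ends highest in Sd10 in both libraries, with Oaz3 at 30623 CPM in WT and 31904 CPM in KO.

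Of 5020 genes with at least 100 UMIs, 7.27% were highest in Sd10 in both libraries. The 4 genes belong to them by the rule, and nothing is read from that. The size of the last step differed among them. From Sd9 to Sd10 the level of Oaz3 was 1.83-fold higher in WT and 1.91-fold in KO, that of Tppp2 1.90-fold and 1.94-fold, and that of Car2 1.70-fold and 1.76-fold. Spata3 had the smallest step, 1.32-fold (1.27 to 1.36) in WT and 1.28-fold in KO. At least 1.5-fold in both libraries was reached by 5.70% of 3945 genes, among them Oaz3, Tppp2 and Car2 but not Spata3. The genes were picked by their CPM in Sd10, so that nothing is read from this count either.

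A share of the total can be higher without more molecules, since the total is a sum over all mRNAs. Prm1, a protamine mRNA, had 149173 CPM in WT Sd9 and 38041 in WT Sd10, and 139848 and 31101 CPM in KO. The mean UMIs per cell of the 4 genes were nonetheless higher in Sd10 too. Oaz3 went from 104 to 208 UMIs per cell in WT and from 97.9 to 202 in KO. Tppp2 went from 10.3 to 21.4 and from 9.61 to 20.2, Car2 from 7.51 to 13.95 and from 8.09 to 15.4, and Spata3 from 21.2 to 30.5 and from 19.3 to 26.7. A mean higher in Sd10 than in Sd9 in both libraries was seen in 27.8% of 3945 genes. The median cell had about as many UMIs in both clusters, 4994 in Sd9 and 5271 in Sd10 of WT, and 4978 and 5287 in KO. The mean of all UMIs per cell was higher in Sd10, at 6808 against 6224 in WT and 6339 against 5866 in KO. As a gene's mean UMIs per cell follow from its CPM and this mean, they are a description of genes picked by CPM too.

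**Figure D2:**
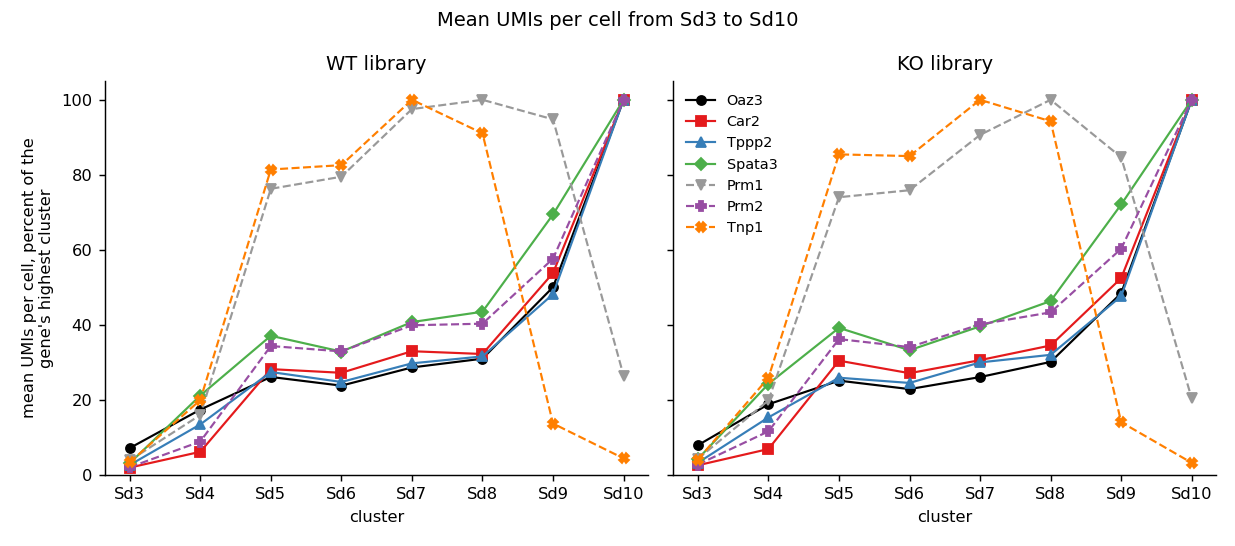
Mean UMIs per cell from Sd3 to Sd10 as a percent of each gene's highest cluster (linear axis from 0), with 1 panel per library, for the 4 genes and for Prm1, Prm2 and Tnp1. The 4 genes and Prm2 end at their highest in Sd10, whereas Tnp1, which was highest in Sd7 at 360 UMIs per cell in WT, and Prm1 are low there.

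The 4 genes together made up 4.03% of the UMIs of WT Sd10 and 4.17% of those of KO Sd10, against 0.0719% and 0.0680% in Sd1. Sd8 to Sd10 held 23.7% of the WT cells and 20.7% of the KO cells, and 51.3% to 54.3% of the UMIs of each gene. All 4 genes were detected together in 97.8% of WT and 98.6% of KO cells of Sd10. In Sd4 this share was 31.9% and 40.4%, and in Sd3 it was 6.15% and 9.10%.

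Detection outside the late clusters has to be set beside free RNA, which in droplet or microwell data gives UMIs in cells that do not make an mRNA. In Sg, the spermatogonia cluster, 89.5% of WT and 88.1% of KO cells held an Oaz3 UMI, with a median of 6133 UMIs per WT cell of all genes. The shares in Sg were 36.1% and 36.1% for Car2, 44.7% and 40.6% for Tppp2, and 51.1% and 44.1% for Spata3. After thinning each cell to 3000 UMIs, with no cell too shallow, they were 73.1% and 77.2% for Oaz3, 25.6% and 23.8% for Car2, 28.8% and 28.2% for Tppp2, and 38.4% and 32.2% for Spata3. The levels in Sg were 6.57% to 8.19% of the Sd10 level for the 4 genes. Prm2 lay at 7.06% and 7.72% of its own highest level there, Prm1 at 13.51% and 13.04% and Tnp1 at 10.6% and 11.5%, and the part of free RNA in these values was not tested.

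Read against that background, Oaz3 stood out earliest. Per 100 Prm1 UMIs of the same cluster it had 10.8 UMIs in Sg and 13.9 in Sd1 of WT, and 39.7 in Sd3, with 10.3, 14.5 and 38.7 in KO. In Sd3 99.8% of WT and 99.7% of KO cells held an Oaz3 UMI, and from Sd4 on all cells did. Spata3 was present in 45.4% and 47.7% of Sd3 cells, a share at or near that in Sg, and in 94.5% and 94.2% of Sd4 cells. Tppp2 was present in 30.0% and 34.3% of Sd3 cells, below Sg, and in 80.7% and 82.7% of Sd4 cells. Car2 came last, with 34.8% and 44.0% of Sd4 cells, not far from Sg, and 92.4% and 96.3% of Sd5 cells. Sg held more Prm1 than Sd1 to Sd3 did, and these shares were not thinned. In the thinned cells Car2 went from 9.13% (WT) and 7.82% (KO) in Sd3 to 20.1% and 23.7% in Sd4. Spata3 went from 14.6% and 17.5% in Sd2 to 25% and 24.2% in Sd3. The cluster where Car2 or Spata3 first stood out thus depended on the comparator.

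Within Sd10 single cells spread widely. Oaz3 ran from 17819 over a median of 28852 to 104863 CPM in the WT cells, and from 18841 over 28700 to 120177 CPM in the KO cells. Tppp2 ran from 854 over 3002 to 9508 CPM in WT and from 941 over 2937 to 11910 CPM in KO. Car2 and Spata3 reached 0 in some cells of each library, with medians of 2012 and 2483 CPM for Car2 and of 4660 and 4323 CPM for Spata3. Their highest cells had 5767 and 5233 CPM of Car2 and 7793 and 8503 CPM of Spata3.

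To order the Sd10 cells by a gene outside the 4, all of them were split at the quartiles of the Prm1 share of a cell's UMIs, 1.36%, 2.69% and 4.05%, without regard to library. The group with most Prm1 held 54 WT and 62 KO cells and that with least Prm1 held 35 and 81. Oaz3 had 24831 CPM in the WT cells with most Prm1 and 46035 CPM in those with least, and 24067 and 46052 CPM in KO. Tppp2 went the same way, from 2484 to 5143 CPM in WT and from 2386 to 4533 CPM in KO. Car2 differed less, with 1795 and 2444 CPM in WT and 2229 and 2529 CPM in KO. Spata3 went the other way, with 4695 CPM where Prm1 was most abundant and 2503 CPM where it was least in WT, and 4572 and 2507 CPM in KO.

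The spread of Spata3 was not a steady slope over these cells. In WT it had 5142 and 4777 CPM in the middle groups, and in KO 4967 and 4898 CPM, so that only the cells with least Prm1 were low. In UMIs per cell, those cells had 13.5 (WT) and 13.8 (KO) of Spata3, against 43.9 and 36.2 in the cells with most Prm1, and 248 and 254 of Oaz3, against 232 and 191. Tppp2 had 27.7 and 25.02 UMIs per cell there, against 23.2 and 18.9. Car2 had 13.1 and 13.96, against 16.8 and 17.7, so that its UMIs per cell were lower although its CPM was higher. The cells with least Prm1 had fewer UMIs in all, 5377 against 9347 per cell in WT and 5521 against 7923 in KO. They also had fewer genes, a median of 885 against 1370 in WT and of 1010 against 1239 in KO. The part of depth in these differences was not tested.

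**Figure D3:**
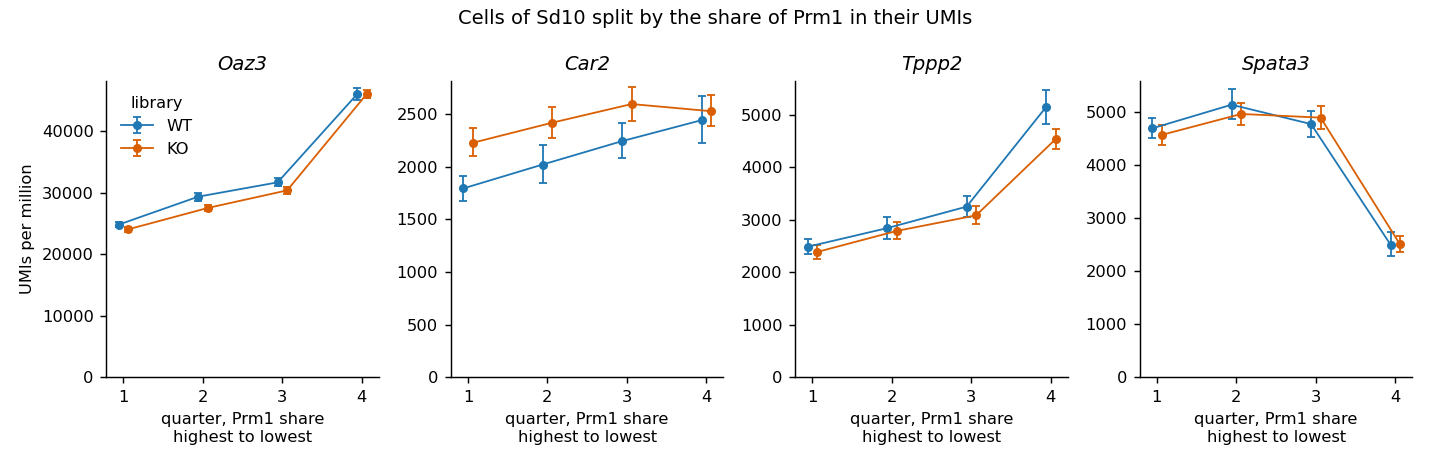
CPM of the 4 genes (linear axes from 0, 1 panel per gene) in 4 groups of Sd10 cells split at the quartiles of the Prm1 share of a cell's UMIs, from most to least Prm1, for WT and KO with 95% Poisson intervals of the counts. Oaz3 and Tppp2 are highest and Spata3 is lowest in the cells with least Prm1.

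The same contrast stood between single cells. Over the 184 WT and 278 KO cells of Sd10, the Spearman correlation of CPM was 0.60 and 0.57 for Oaz3 with Tppp2, -0.37 and -0.47 for Oaz3 with Spata3, and -0.44 and -0.38 for Tppp2 with Spata3. Oaz3 with Car2 gave 0.12 and 0.00. In Sd9, with 421 and 435 cells, Oaz3 with Spata3 gave 0.42 and 0.40 and Oaz3 with Tppp2 gave 0.33 and 0.36, so that the sign for Spata3 differed between the clusters. With cells thinned to 3000 UMIs, Oaz3 with Spata3 gave -0.36 and -0.46 in Sd10. These values describe cells that share a library, a pool of mice and the total that each CPM is divided by, and they have no test.

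**Figure D4:**
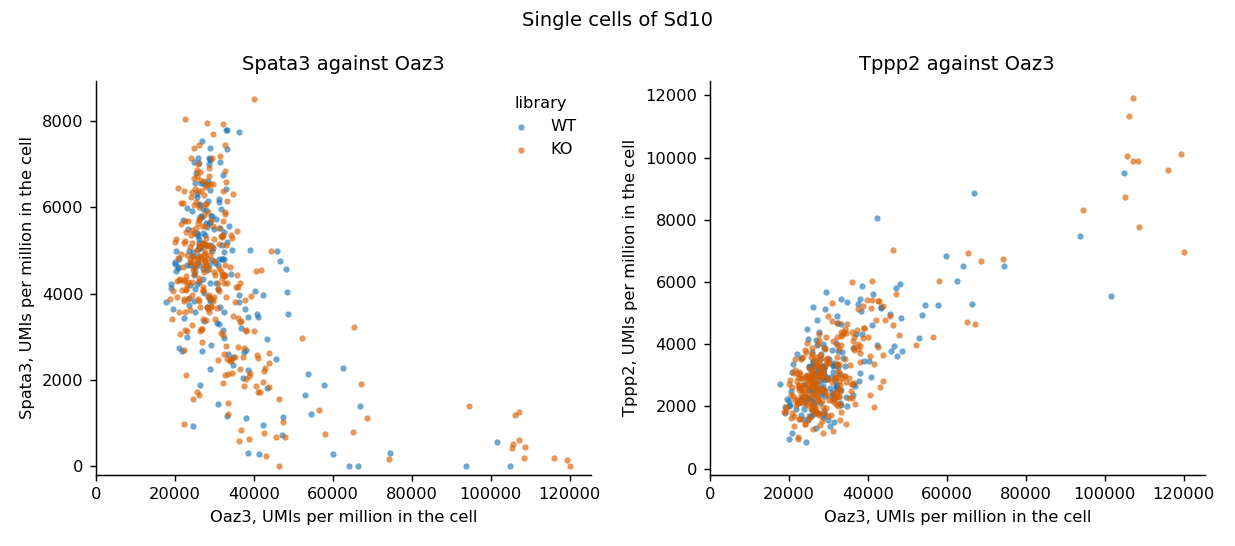
CPM of Spata3 (left panel) and Tppp2 (right panel) against CPM of Oaz3 in each Sd10 cell, 184 of WT and 278 of KO, on linear axes. At the right edge of both panels 14 cells lie above 90000 CPM of Oaz3, with Spata3 near 0 and Tppp2 high.

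The end of this spread was set off by a gap in Oaz3. In 14 cells of Sd10, 3 of WT and 11 of KO, Oaz3 had 93767 CPM or more, the next cell had 74503 CPM, and no cell of another cluster had more than 38037 CPM. The limit of 90000 CPM was set after this gap was seen, and the cells were picked by Oaz3, so that its own level there is no finding. Oaz3 made up 10.7% of the UMIs of these cells, and 2.97% of those of the remaining 448 cells. Tppp2 had 9186 CPM in the 14 cells against 3032 CPM in the rest. Spata3 had 484 against 4411 CPM and Car2 545 against 2313 CPM, with 32 and 36 UMIs in all. Low Spata3 and high Tppp2 were not particular to the 14 cells. The next WT cell, at 74503 CPM of Oaz3, had 297 CPM of Spata3 and 6530 CPM of Tppp2, and the next KO cell, at 74323 CPM, had 172 and 6725 CPM.

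Other late mRNAs differed in both directions between the 14 cells and the rest of Sd10. Smcp, which encodes a protein of the sperm mitochondrial capsule, had 163186 CPM there against 38993 CPM in the rest of Sd10. Odf1, a component of the outer dense fibres of the tail, had 6069 against 1399 CPM, and Azin2, an antizyme inhibitor, 1619 against 323 CPM. On the other side stood Prm2 with 3753 against 111104 CPM, Gapdhs, the sperm form of a glycolytic enzyme, with 439 against 7046 CPM, and Akap4, the main protein of the fibrous sheath, with 75.7 against 2656 CPM. With the libraries pooled Cabs1 and Tnp1 differed less, with 9897 against 7309 CPM and 1619 against 1890 CPM, but the direction was not the same by library. Cabs1 had 6335 against 6763 CPM in WT and 10739 against 7706 CPM in KO. Tnp1 had 1584 against 2320 CPM in WT and 1628 against 1578 CPM in KO. The 14 cells had 3604 to 6728 UMIs each, a median of 885.5 genes against 1125, and a median of 0.65% mitochondrial UMIs against 0.60%. By library that mitochondrial median was 1.03% against 0.48% in WT, from 3 cells, and 0.62% against 0.70% in KO, from 11 cells. Doublets were not called, and the part of cell quality in this group was not tested.

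The 14 cells bear on the values above. Without them the fold from Sd9 to Sd10 on the log2 scale was 0.84 in place of 0.87 for Oaz3 in WT and 0.82 in place of 0.93 in KO. The correlations of Oaz3 over Sd10 cells were 0.58 and 0.52 with Tppp2 and -0.34 and -0.41 with Spata3 without them, and that with Car2 was 0.17 and 0.13.

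Between the libraries the 4 genes differed by less than 1.5-fold in Sd10. Car2 had 2049 CPM in WT and 2434 CPM in KO, a log2 ratio of KO to WT of 0.25 (0.18 to 0.32). Oaz3 had a log2 ratio of 0.06 (0.04 to 0.08), Tppp2 of 0.02 (-0.04 to 0.08) and Spata3 of -0.09 (-0.14 to -0.04). In Sd10 15.6% of 3674 genes with at least 10 UMIs were at least 1.5-fold higher in KO and 9.80% at least 1.5-fold lower. None of the 4 genes passed 1.5-fold in either direction. With at least 50 UMIs these shares were 9.67% and 4.30%, and the 4 genes had far more UMIs than that. The median log2 ratio of all genes read was 0.04. Among the 387 genes with at least 1000 UMIs the median was -0.02, with quartiles of -0.14 and 0.11, so that Car2 lay above the upper quartile. Of these genes 88.9% had a lower log2 ratio than Car2, 66.7% than Oaz3, 58.4% than Tppp2 and 33.3% than Spata3.

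The values of Oaz3, Tppp2 and Spata3 depended on which Sd10 cells were compared. Without the 14 cells above 90000 CPM the log2 ratio was -0.022 for Oaz3, -0.055 for Tppp2 and -0.061 for Spata3. As the mean of the ratios within the 4 groups by Prm1 share it was -0.050 for Oaz3, -0.086 for Tppp2 and -0.012 for Spata3. Within the groups Spata3 lay on both sides of 0, with 0 inside every interval. From the cells with most to those with least Prm1 the ratio of Oaz3 was -0.045, -0.093, -0.061 and 0.0005. That of Tppp2 was -0.058, -0.028, -0.075 and -0.18. The interval of Oaz3 held 0 only in the last of these groups, and that of Tppp2 lay below 0 only there. The cells with least Prm1 were 35 of 184 WT and 81 of 278 KO cells, with Oaz3 at 46035 CPM in WT and 46052 CPM in KO.

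Of the 4 genes Car2 had the same direction in the most clusters. Its level was higher in KO in 12 of 13 clusters, with a counting interval above 0 in 11, from a log2 ratio of -0.08 in Sd1 to 0.64 in Sc2. In the spermatid clusters with most of its UMIs the ratios were 0.30 in Sd5, 0.22 in Sd6, 0.15 in Sd7, 0.26 in Sd8 and 0.19 in Sd9. Sc2 was the only cluster past 1.5-fold, at 31.5 CPM in WT and 49.0 CPM in KO, levels below those in Sg. Within Sd10 the ratio was 0.31, 0.26, 0.21 and 0.05 from the cells with most to those with least Prm1. The clusters of a library share its pool of mice and its free RNA, so that they are not independent repeats of the difference.

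The other genes had ratios on both sides of 0. Oaz3 ran from -0.11 in Sg to 0.15 in Sd2, Tppp2 from -0.12 in Sd5 to 0.18 in Sc2 and Spata3 from -0.27 in Sd1 to 0.32 in Sc1. Spata3 was lower in KO in each of Sd5 to Sd10, with counting intervals below 0 from Sd6 on, and the ratios there lay between -0.11 in Sd7 and -0.05 in Sd9. The mitochondrial share in Sd10 was 0.49% in WT and 0.69% in KO, and Prm1 and Tnp1 had log2 ratios of -0.29 and -0.55 there. The values within groups of like Prm1 share are given above. On totals without mitochondrial genes the log2 ratios in Sd10 were 0.061 for Oaz3, 0.25 for Car2, 0.020 for Tppp2 and -0.084 for Spata3, and the part of Tnp1 was not tested.

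**Figure D5:**
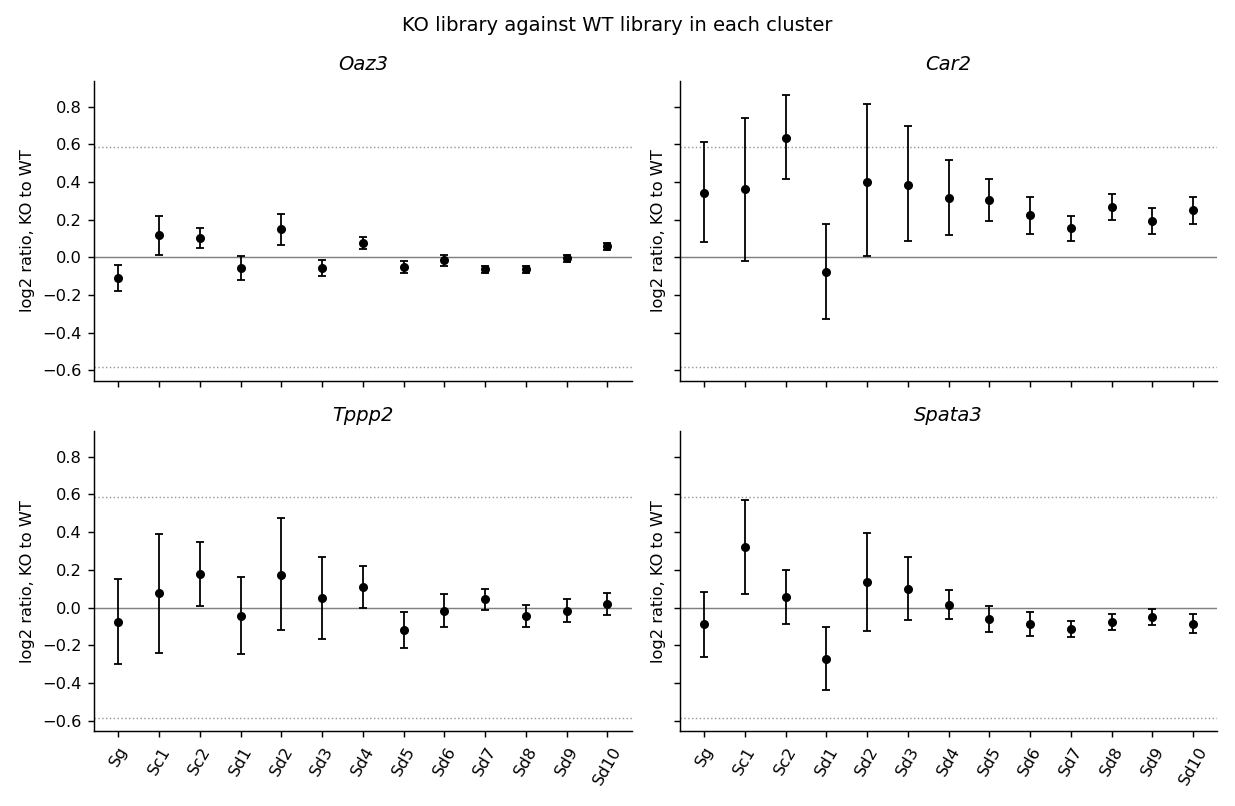
Log2 ratio of KO to WT CPM (linear axis) of the 4 genes in each of the 13 clusters, with exact conditional 95% intervals of the counts, dotted lines at 1.5-fold and a line at 0. Car2 lies above 0 in 12 clusters and passes 1.5-fold in Sc2, and the other genes lie close to 0 on both sides from Sd3 to Sd10.

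Genes with a like course were looked for by the Pearson correlation of log2(CPM + 10) over the 26 sums of a library and a cluster, among 4298 genes with at least 1000 UMIs. For Oaz3 the closest were 4930571K23Rik (0.997), Gm11780, Gapdhs, Smcp and 4933411K16Rik (0.994). For Car2 they were Gm498 (0.996), 5031439G07Rik, Itpr3os, 1700027A15Rik and 1700012A03Rik (0.994). For Tppp2 they were Spem1 (0.998), Lelp1, Fam71f2, Tssk6, a kinase of spermatids, and 1700012A03Rik (0.997). For Spata3 they were Dnajb8 (0.999), a chaperone, 1700020G17Rik, 4930570D08Rik, 1700001K19Rik and 1700016H13Rik (0.996). Among themselves the 4 genes correlated between 0.961 for Oaz3 with Car2 and 0.994 for Tppp2 with Spata3, whereas Oaz3 with Tnp1 gave 0.606. The points share libraries, depth and the clustering, and the values have no test.

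A like course over all clusters left room for a different last step. Dnajb8, closest to Spata3, had 3133 CPM in Sd9 and 4997 CPM in Sd10 of WT and 3005 and 4743 CPM in KO, a larger step than that of Spata3. Spem1, closest to Tppp2, had 1307 and 2043 CPM in WT and 1238 and 1982 CPM in KO, a smaller step than that of Tppp2. Smcp, among the closest to Oaz3, had 21942 and 40140 CPM in WT and 22751 and 42835 CPM in KO.

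Of the genes that act with antizymes, 3 of the 15 polyamine genes listed had 1 possible row. None of them passed 1.5-fold between libraries in Sd10, beside 15.6% higher and 9.80% lower in KO of all genes read. With 3 genes nothing is read from that count. Their median log2 ratio was -0.25 beside 0.04 over all genes read. Azin2 was highest in Sd10 at 386 CPM in WT and 326 CPM in KO, up from 180 and 165 CPM in Sd9, and its log2 ratio was -0.25 (-0.42 to -0.07). Oaz1, the antizyme made in most tissues, was highest in Sc1 at 599 and 517 CPM and had 75.8 and 57.9 CPM in Sd10. Oaz1 was thus highest in a spermatocyte cluster and Oaz3 in the last spermatids. Of 3 known partners of antizyme 3, 2 could be read, with a median log2 ratio of -0.12. Neither was past 1.5-fold, and 2 genes are too few to set beside the shares of all genes. Odf1 was highest in Sd10, with 438, 837 and 1553 CPM in Sd8, Sd9 and Sd10 of WT and 386, 744 and 1465 CPM in KO. Ggn, which encodes gametogenetin, was highest in Sd1 at 260 and 218 CPM.

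No other carbonic anhydrase of the 15 listed had 1 possible row. Of 15 genes for bicarbonate and protons 4 had, of which 2 had enough UMIs in Sd10, with a median log2 ratio of -0.06. Neither was past 1.5-fold, beside 15.6% higher and 9.80% lower in KO of all genes read, and 2 genes are too few to read that. Adcy10, the bicarbonate-activated adenylyl cyclase of sperm, was highest in Sd9 at 204 and 191 CPM and had 159 and 135 CPM in Sd10. Neither of the other 2 TPPP genes could be read. Of 22 genes for tubulins and their acetylation 5 could, and 1 of them was past 1.5-fold higher in KO, Tubb6 with 18 UMIs in Sd10, beside 15.6% of all genes read. Their median log2 ratio was -0.02. Tubb4b, a tubulin of cilia and flagella, had 718 and 679 CPM in Sd10, below its 1056 and 998 CPM in Sd9.

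The Spata genes share a name and not a pathway. Of 27 listed, 18 had 1 possible row and 17 were read in Sd10, of which 2 were past 1.5-fold higher in KO and none lower, beside 15.6% and 9.80% of all genes read, with a median log2 ratio of 0.00. Spata1 had 164 CPM in WT and 340 CPM in KO, a log2 ratio of 1.05 (0.82 to 1.28), and Spata31 had a log2 ratio of 0.61 with 60 UMIs in all. Of the 18, only Spata18 was highest in Sd10 in both libraries, as Spata3 was, at 1510 and 1469 CPM. Over all genes with at least 100 UMIs this share was 7.27%. Spata6, which is needed for the connecting piece of sperm, was highest in Sd9 at 2668 and 2662 CPM and had 1718 and 1762 CPM in Sd10.

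The protamine and transition protein genes had a median log2 ratio of -0.29 in Sd10. All 5 were read and none was past 1.5-fold, beside 15.6% higher and 9.80% lower in KO of all genes read. Prm2 was highest in Sd10 at 110257 CPM in WT and 107681 CPM in KO, and the other 4 in an earlier cluster. Of 9 late spermatid genes listed for comparison, 6 were highest in Sd10 in both libraries, Gapdhs, Akap4, Odf1, Spem1, Smcp and Cabs1. Over all genes with at least 100 UMIs this share was 7.27%. The list was made of late genes, so that nothing is read from its count. None of the 9 passed 1.5-fold between libraries, beside the same 15.6% and 9.80%, and their median log2 ratio was -0.08.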

How the data were processed

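Single cells of 1 WT and 1 KO testis suspension were captured on microwell beads. Per the submitters' processing notes and the study's methods, the authors checked reads with FastQC 0.11.7, trimmed them with fastp, aligned them with STAR 2.5.3a to mm10, counted them on Ensembl genes using featureCounts 1.6.2, and filtered, integrated and clustered the cells in Seurat 3.2.3. The limits of the cell filter and the strand setting of the counting are not given in the sources used here. The deposited matrix holds raw UMI counts, without normalization. The authors' deposited cell table gives the library and cluster of each cell, its UMI count, its number of genes and the percent of its UMIs from mitochondrial genes.

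The symbol list has 25065 lines and the matrix 26758 rows. The 30 mitochondrial symbols were placed on rows whose UMIs give the mitochondrial percent exactly in 12408 of 12408 cells (in 662 cells if line and row numbers are equated). Between them, only rows seen in fewer than 5 cells could lack a symbol, and symbols with 1 possible row were used (86.9% of UMIs). Without that rule Car2 has 2 possible rows. No cell was left out and no doublet caller was run.

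UMIs of a cluster were summed within each library and given as CPM with exact Poisson intervals. Log2 ratios had a prior of 1 UMI, shared in proportion to depth, and exact conditional binomial intervals. Shares of cells had Clopper-Pearson intervals. With 1 library per genotype no test was run, and 1.5-fold among genes with at least 10 UMIs served as the limit. The genes and lists were chosen with earlier results of these data known. Genes named are the 4 genes, the 5 most similar to each, list members with at least 100 UMIs in Sd10 (the 4 with most where more pass), and protamine, transition protein and marker genes beside a result. Spata1, Spata31, Tubb6, Akap4, Odf1 and Spem1 in the list counts, and the genes given for the 14 cells rich in Oaz3, were named after their values were seen. Alternatives were other totals, the mean of single-cell CPM, cells thinned to 3000 UMIs, 10 UMIs as the prior, omission of the 5% deepest cells, centring, other count limits and, added after the data were seen, the ratio within groups by Prm1 share and Sd10 without those 14 cells. Python 3.11.15, numpy 2.4.6, scipy 1.17.1 and pandas 2.3.3 were used, and the scripts were tested on simulated data.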

Additional observations from a re-analysis of the deposited data

Results flagged for a closer look

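The ratio of KO to WT differed in direction between clusters for 3 of the genes, with counting intervals on opposite sides of 0. With 1 library per genotype these differences were not tested. For Oaz3 the log2 ratio was 0.15 in Sd2 and -0.11 in Sg. For Tppp2 it was 0.18 in Sc2 and -0.12 in Sd5. For Spata3 it was 0.32 in Sc1 and -0.27 in Sd1. These are the highest and lowest clusters of each gene, and in all of them the gene was far below its Sd10 level. Tppp2 in Sd5 had 619 CPM in WT and 569 CPM in KO, against 3144 and 3184 CPM in Sd10. Oaz3 also changed direction among the clusters where it was abundant, with 0.08 in Sd4 and 0.06 in Sd10 against -0.05 in Sd5 and -0.06 in Sd7 and Sd8.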

How the results depend on the processing

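No paired analysis was possible because each genotype is 1 library, and no replicate could be left out for the same reason. The log2 ratio of KO to WT in Sd10 stayed within 0.20 to 0.27 for Car2 over all alternatives. For Oaz3 it was 0.027 with cells thinned to 3000 UMIs, 0.016 after centring on the median of all genes read, -0.022 without the 14 Sd10 cells above 90000 CPM of Oaz3 and -0.050 as the mean over 4 groups by Prm1 share, so that its direction turned under the last 2. For Tppp2, whose interval held 0, it was -0.025 after centring, -0.055 without the 14 cells and -0.086 as the mean over the groups, and for Spata3 that mean was -0.012. The fold of Oaz3 from Sd9 to Sd10, on the log2 scale, was 0.90 in WT and 0.97 in KO on totals without the 20 rows with most UMIs, 0.95 and 1.002 as the mean of single-cell CPM, 0.96 and 0.99 with thinned cells, 0.91 and 0.98 without the 5% of cells with most UMIs, and 0.84 and 0.82 without the 14 cells. That of Tppp2 was 0.999 in WT as the mean of single-cell CPM and 0.86 in KO without the 14 cells. With at least 50 UMIs 9.67% of genes were 1.5-fold higher and 4.30% lower in KO, and without a filter 15.8% were lower. Thinning moved the share of cells with a UMI to 73.1% (WT) and 77.2% (KO) for Oaz3 in Sg, 25.6% and 23.8% for Car2 in Sg, 96.9% and 96.3% for Car2 in Sd9, 96.7% for Car2 in WT Sd10, 28.8% and 28.2% for Tppp2 in Sg, 98.6% for Tppp2 in KO Sd9, and 38.4% and 32.2% for Spata3 in Sg. The cause of these moves was not tested. Under the alternatives 87 values moved by less than counting error or, for the shares of genes, less than 1.5-fold, 32 moved by more, among them those of Tppp2 that changed sign without the 14 cells and within the groups, and the 2 of Oaz3 turned from an interval above 0. Of the correlations over Sd10 cells 33 moved little and 3, all of Car2 in KO without the 14 cells, moved more, to 0.13 with Oaz3, 0.12 with Tppp2 and -0.072 with Spata3. With 1 library per genotype neither the spread between mice nor that between captures is known, and the counts limit only the precision within each library.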
